A study of Mus musculus with 71 samples.

Results

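Solute carrier genes encode the membrane proteins that move amino acids, sugars, nucleotides, vitamins, metals and inorganic ions into cells and between their compartments. Mouse genes whose symbol has the form Slc, a number, letters and a number were taken, and those with a mean of more than 1000 covered T positions over the labelled libraries of each treatment were kept. Of 363 genes with such a symbol among the 21527 genes counted, 124 were kept and 239 were under the limit, 37 of them with 0 reads in every library. The genes were thus selected on the measured T coverage, which rises with expression, so their being expressed is not a result. The last genes inside the limit were Slc38a9, Slc37a3 and Slc25a23, whose lower treatment mean was 1015, 1039 and 1056 covered T positions, and the first outside it were Slc4a7, Slc30a4 and Slc27a2 with 951, 962 and 998.

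RNA decay was measured by SLAM-seq in male mouse embryonic stem cells (mESC) kept in 2i/LIF medium. RNA was labelled with 100 µM 4-thiouridine (s4U) for 24 h, the label was washed out with excess uridine, and 3′ ends were sequenced after 0, 1, 1.5, 2.3, 3.5, 5.3, 8 and 12 h of chase, with label read as T-to-C conversions. From 6 h before the chase to its end the medium held 20 µM STM2457, which inhibits the m6A methyltransferase Mettl3, or DMSO alone, so the 12 h libraries had been treated for 18 h. Each group held 4 libraries, except 3 for STM2457 at 3.5 h, and 4 unlabelled libraries were made per treatment, giving 71 in all. The study's methods call the replicates independent biological replicates and the labels do not say how cultures were kept apart, so p-values measure the spread between these libraries. Controls and treated cells alike were male mESC, and hours of chase and hours of treatment run together and cannot be told apart.

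The carriers are grouped in families by sequence, and most families keep to a class of substrate. Plasma membrane amino acid carriers feed protein synthesis, the Slc25 family passes metabolites across the inner mitochondrial membrane, and the Slc35 family brings nucleotide sugars into the Golgi and endoplasmic reticulum. Zinc is handled by opposing families, Slc30 moving it out of the cytosol and Slc39 into it. The 124 genes covered 40 families, all were protein coding, and 5 lay on the X chromosome. Classed by the substrate usual for their family, they comprised 25 mitochondrial carriers of 47 listed, 19 amino acid carriers of 65, 16 Slc35 genes of 27, 13 carriers of ions and pH of 49 and 12 zinc carriers of 23. A further 8 each were in families for sugars, vitamins or nucleosides, and monocarboxylates or other organic ions, with 5 for lipids and choline, 4 for other metals and 2 for phosphate. Families were not split, so Slc5a6, a carrier of the vitamins biotin and pantothenate, is counted with the sugar carriers of its family. Slc23a2, of the vitamin C carrier family, is counted with the organic ion carriers and not with the vitamin carriers. Slc9a3r1, Slc4a1ap and Slc7a6os carry the name of a carrier but are not transporters, and Slc49a4 was given no class.

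Libraries held 4539726 to 7368244 counted reads, of which the 124 genes took 0.767% to 1.036%. The median gene had a mean of 160 reads per library and the range was 44.6 to 5379, so counting error is large for the lower genes. The stem cell markers Pou5f1 and Dppa5a were abundant, with medians of 824 and 2721 counts-per-million (CPM, reads scaled to a common library size) in DMSO, and Nanog, Esrrb, Zfp42 and Tdgf1 were present, while Klf4 had a median of 2.29 and Sox2 was not listed. Of the markers of other cell types, Pax6 and Sox1 were not listed, Gata6, Sox17, Afp, Col1a1 and Col1a2 had medians of 0.34 CPM or less in both treatments, Mixl1 and Gata4 of 1.88 to 4.34, and Nes, T, Cdx2 and Thy1 of 9.57 to 20.5. Slc35e3, Slc39a10, Slc25a40 and Slc39a1 drew 99.5%, 75.5%, 73.7% and 70.1% of their reads from sequence mapped to several places, so their values are uncertain.

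Within groups, libraries differed along 1 shared direction. A library score, the first principal component of deviations from group means over 12535 other genes, took 11.9% of that variance. The score fell below -1 SD in 12 libraries, 9 of DMSO and 3 of STM2457. They were 3 of 4 libraries at 1 h in each treatment, 2 DMSO libraries each at 1.5 h and 5.3 h, and 1 DMSO library each at 0 h and without s4U, and 26.3% to 28.8% of their reads mapped to several places, against 22.5% to 28% elsewhere. Several carriers followed the score. Slc3a2, the heavy chain shared by several amino acid exchangers, changed by 0.62 log2 units per SD of the score within groups, and its 4 DMSO libraries at 1 h ran from 77.0 to 461 CPM. Slc29a2, an equilibrative nucleoside transporter, changed by 0.74 and Slc4a8, a sodium-driven chloride/bicarbonate exchanger, by 0.73 per SD, whereas Slc25a4, the heart and muscle form of the mitochondrial ADP/ATP carrier, changed by -0.26. The slope was over 0.25 in 25 of the 124 genes and under -0.25 in 3. Counts below are therefore given also without these 12 libraries, a choice made after the data were seen. These counts of calls cover carriers alone, without the count over all genes under that setting. A shift in them is thus not shown to be particular to carriers.

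**Figure D1:**
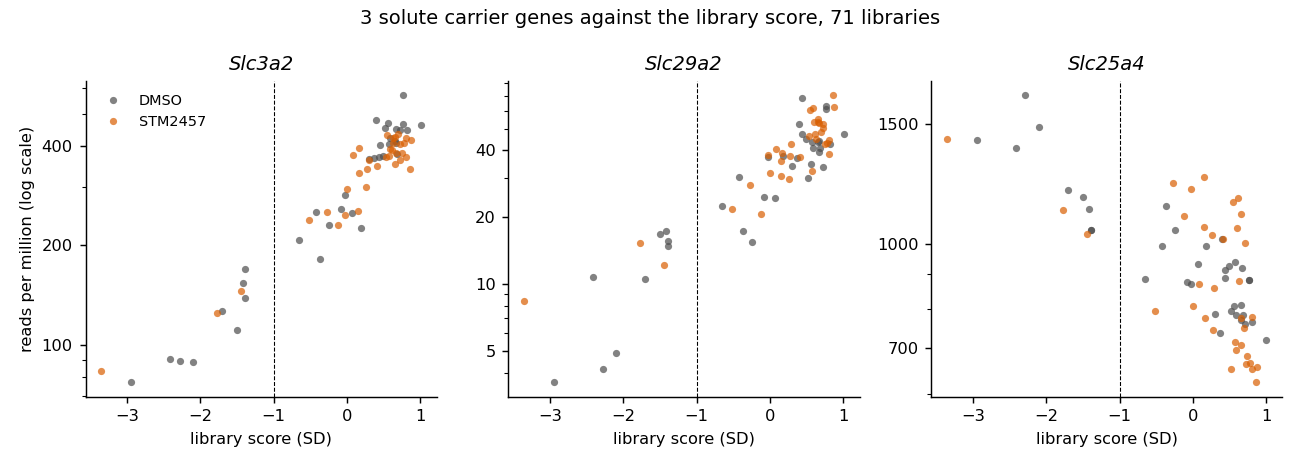
CPM (log scale) of Slc3a2, Slc29a2 and Slc25a4 in each of the 71 libraries against the library score in SD units, with the limit of -1 dashed. Slc3a2 and Slc29a2 were low and Slc25a4 was high in the libraries left of the limit, in both treatments.

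The first comparison asked which carriers differed in read level between STM2457 and DMSO, averaged over the 8 chase times. Of the 124 genes, 37 were called at an adjusted p under 0.01 with edgeR's quasi-likelihood test, 25 higher and 12 lower. Over all 12659 genes tested 26.5% were called, 13.9% higher and 12.6% lower, and 34.8% of the 8105 genes past the same T coverage limit, so the share called among carriers, 29.8%, was near the background. Their median log2 difference was 0.06, against -0.01 over all genes. These are bulk libraries, in which fewer cells of a kind and less RNA per cell cannot be told apart. The median size among the 37 was 0.31 log2 units with a median standard error of 0.07, and 4 exceeded 1.5-fold. The direction was the same at all 8 times for 22 of the 37. Without the 12 libraries 28 genes were called, 25 of them among the 37, and without the 1.5 h libraries 28, again with 25 shared.

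Slc25a28, a mitochondrial iron importer (chr19:43663801-43674881, GRCm38), had the highest increase. Its level over 32 DMSO chase libraries had a lowest value of 24.6, a median of 53.3 and a highest of 68.9 CPM, and over 31 STM2457 libraries these were 44.4, 77.0 and 101. The log2 difference was 0.72 ± 0.07 (SE, edgeR adjusted p = 7.25e-14), and it was positive at each time, from 0.41 to 1.03. Slc35b2, the Golgi transporter of the sulfate donor PAPS (chr17:45563874-45567671), ran from 10.8 over a median of 23.8 to 37.0 CPM in DMSO and from 15.6 over 38.4 to 51.7 in STM2457. Its log2 difference was 0.67 ± 0.08 (adjusted p = 2.75e-11). For both genes the libraries of the treatments overlapped when all times were pooled, and the fit compares them within each time.

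Among the genes classed as vitamin and nucleoside carriers 5 of 8 were called, 4 of them higher. The class leaves out Slc23a2, which was at -0.20 ± 0.10 and not called (adjusted p = 0.111). Slc19a1, the reduced folate carrier (chr10:77032241-77061002), had a median of 21.1 CPM in DMSO and 32.3 in STM2457, with a log2 difference of 0.60 ± 0.08 (adjusted p = 1.29e-08). Slc46a1, the proton-coupled folate transporter, was higher by 0.30 ± 0.09, Slc29a3, a nucleoside transporter of lysosomes, by 0.31 ± 0.08 and Slc52a2, a riboflavin transporter, by 0.26 ± 0.08. Slc29a3 was above 0 at 6 of 8 times and Slc52a2 at 5. At 12 h the log2 difference of Slc29a3 was -0.41 ± 0.23 (adjusted p = 0.293). Slc19a2, a thiamine transporter of the same family as Slc19a1, moved the other way, by -0.35 ± 0.05 (adjusted p = 2.29e-07).

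Of the 25 mitochondrial carriers 3 were higher and 4 lower. Besides Slc25a28, Slc25a51, the NAD carrier of mitochondria, rose by 0.53 ± 0.05 log2 units (adjusted p = 7.22e-16), from a DMSO median of 81.2 to 117 CPM, although 11.8% of its reads mapped to several places. Slc25a15, an ornithine carrier, was higher by 0.24 ± 0.04. Slc25a5, the ubiquitous ADP/ATP carrier, was lower by 0.23, with a log2 difference of -0.23 ± 0.04 (adjusted p = 9.57e-06) and medians of 611 in DMSO and 534 in STM2457. Slc25a40 at -0.40 ± 0.09, the peroxisomal Slc25a17 at -0.18 ± 0.05 and the phosphate carrier Slc25a3 at -0.13 ± 0.03 were the other 3 that were lower. Slc25a17 had nearly the same value without the 12 libraries, -0.17, and was not called (adjusted p = 0.0292).

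Carriers of ions and pH had 4 of 13 called, each higher, but part of that depended on few libraries. Slc26a2, a sulfate transporter, was higher by 0.43 ± 0.08 (adjusted p = 9.35e-06) and at all 8 times. Slc12a9 was higher by 0.54 ± 0.11, its log2 difference ran from -0.10 to 1.37 among the times, and with the library score as a covariate it was 0.35 and still called. Slc4a8 averaged 0.52 ± 0.15 log2 units, yet was above 0 at only 4 of 8 times and reached 2.22 at 1.5 h. Without 1.5 h its value was 0.28 (adjusted p = 0.215).

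The zinc carriers had 4 higher and 1 lower of 12. The higher ones were Slc39a4 (0.32 ± 0.09), Slc30a6 (0.29 ± 0.07), Slc30a1 (0.27 ± 0.06), which exports zinc from the cell, and Slc39a10 (0.22 ± 0.04), so members of the importing and the exporting family were both among them. Slc39a14, a zinc importer that also takes iron and manganese, was lower with -0.53 ± 0.13, and was not called without the 12 libraries (-0.39, adjusted p = 0.0495).

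Organic ion carriers held the 2 genes with the deepest decrease. Slc33a1, the acetyl-CoA transporter of the endoplasmic reticulum (chr3:63933507-63964768), had a lowest value of 11.5, a median of 17.4 and a highest of 31.3 CPM in DMSO, against 4.81, 10.1 and 18 in STM2457. The log2 difference was -0.78 ± 0.10 (adjusted p = 1.01e-09), below 0 at all 8 times. Slc22a14 (chr9:119169455-119365553) had medians of 34 and 23.8 CPM and a log2 difference of -0.54 ± 0.06 (adjusted p = 1.61e-11), also below 0 at each time. Slc16a1, a plasma membrane lactate and pyruvate transporter, was higher by 0.24 ± 0.06, as was Slc16a6, a relative of it, by 0.21 ± 0.06. Both were above 0 at 6 of 8 times, and at 12 h Slc16a6 was at -0.55 ± 0.16 (adjusted p = 0.0180).

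Amino acid carriers, with 19 genes, had none called higher and 3 lower. They were Slc7a6 (-0.37 ± 0.09), Slc7a3 (-0.21 ± 0.05) and Slc7a7 (-0.18 ± 0.06), which carry cationic amino acids alone or in exchange for neutral ones. Slc7a6 was at -0.27 without the 12 libraries and was not called (adjusted p = 0.0485). Of 8 sugar carriers, Slc2a3, a glucose transporter, and Slc45a4 were called, with 0.21 ± 0.03 and 0.53 ± 0.07. Of 16 Slc35 genes Slc35b2 and the GDP-fucose transporter Slc35c1 were higher, the second by 0.37 ± 0.09, and Slc35c1 was not called without the 12 libraries (0.28, adjusted p = 0.0436). Both phosphate importers, Slc20a1 and Slc20a2, were higher, by 0.29 ± 0.04 and 0.19 ± 0.06. Slc48a1, a heme transporter, was higher by 0.44 ± 0.11. Slc10a7, of the bile acid carrier family, was at -0.43 ± 0.12, and without the 12 libraries at -0.28 and not called (adjusted p = 0.0939). Slc9a3r1, a scaffold protein and no carrier, was higher by 0.15 ± 0.04.

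**Figure D2:**
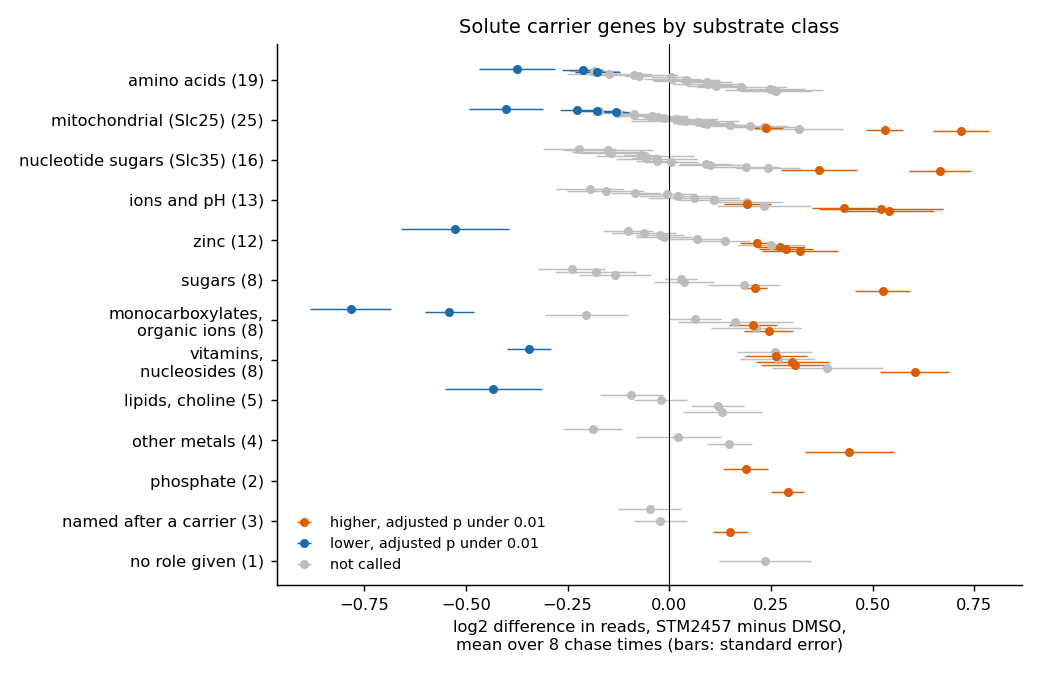
Log2 difference in reads between STM2457 and DMSO, averaged over 8 chase times, for each of 124 solute carrier genes with its standard error, in rows by substrate class with the number of genes. Genes called higher (25) or lower (12) are coloured. The amino acid row holds 3 lower and no higher genes, and Slc25a28 and Slc33a1 mark the right and left ends.

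Of 20 genes listed as other transporters, whose symbols do not have the Slc form, 19 could be tested. Over the chase 3 were higher and 2 lower, or 26.3% called, beside 26.5% of all genes. Sfxn1, a mitochondrial serine transporter, was higher by 0.23 ± 0.04 (adjusted p = 2.38e-07), Sfxn2 by 0.27 ± 0.08 and Mtch1 by 0.14 ± 0.04. Nipa1 and Letm1 were at -0.56 ± 0.18 and -0.16 ± 0.04. Their median was -0.00.

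Single times gave fewer calls. After 6 h of treatment, at 0 h of chase, 5 carriers were called, 4 higher and 1 lower. Of all genes 1.68% were called, and 2.48% of those past the T coverage limit. Slc25a28 stood at 37.1, 31.3, 53.1 and 42.4 CPM in the 4 DMSO libraries and at 79.8, 63.3, 101 and 84.8 in the 4 STM2457 libraries, which did not overlap (log2 difference 1.00 ± 0.19, adjusted p = 0.000382). Slc35b2 stood at 18.4, 13, 23.4 and 23.4 in DMSO and at 32.6, 33, 51.7 and 39.4 in STM2457, again apart (1.00 ± 0.21, adjusted p = 0.00155). Slc33a1 stood at 19.9, 31.3, 17.3 and 15.6 in DMSO and at 12.9, 8.56, 7.68 and 6.38 in STM2457. Each STM2457 library of Slc33a1 was below each DMSO library, with a log2 difference of -1.24 ± 0.28 (adjusted p = 0.00311). Slc25a51 was higher by 0.68 ± 0.13 and Slc16a6 by 0.76 ± 0.17. Over 16 alternatives, 8 of which left out a replicate, Slc25a28 and Slc25a51 kept the call in 16, Slc35b2 in 13, Slc33a1 in 12 and Slc16a6 in 7, with Slc16a6 values from 0.65 to 0.94.

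Cells that never received s4U gave a further pair of groups. Neither the labels nor the study's methods give their hours of treatment. Here 5 carriers were called, 4 higher and 1 lower, with 2.58% of all genes called and 3.71% of those past the T coverage limit. The unlabelled DMSO libraries held 45.7, 37.7, 46.9 and 34.6 CPM of Slc25a28 and the unlabelled STM2457 libraries 112, 99.3, 91.0 and 81.0, a log2 difference of 1.21 ± 0.19 (adjusted p = 1.17e-05). Slc19a1 went from 16.9, 19.3, 17.6 and 15.0 to 35.3, 36.3, 28.9 and 33.9 (0.96 ± 0.24, adjusted p = 0.00601). Neither gene overlapped between the treatments. Slc33a1 went from 14.4, 13.8, 10.3 and 12.1 to 7.58, 5.19, 4.76 and 4.46 CPM, with each STM2457 library below the DMSO libraries (-1.21 ± 0.29, adjusted p = 0.00527). Slc20a1 was higher by 0.55 ± 0.11 and Slc45a4 by 0.75 ± 0.19. Over the same 16 alternatives Slc25a28 kept the call in 16, Slc20a1 in 13, Slc19a1 in 11, Slc33a1 in 9 and Slc45a4 in 4, with Slc45a4 values from 0.65 to 0.79.

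At 12 h of chase, after 18 h of treatment, 5 carriers were called, 3 higher and 2 lower. Of all genes 5.41% were called, and 7.86% of those past the T coverage limit. Without the 12 libraries, none of which is a 12 h library, 11 carriers were called. The glucose transporter Slc2a3 was at 286, 257, 278 and 241 CPM in DMSO and at 352, 357, 344 and 375 in STM2457, with no overlap (0.43 ± 0.08, adjusted p = 0.000113). Slc30a6, a zinc carrier of the Golgi, was at 26.4, 15.0, 14.5 and 15.6 in DMSO and 29.4, 30.6, 33.6 and 36.7 in STM2457 (0.87 ± 0.19, adjusted p = 0.000684). Slc25a51 was higher by 0.51 ± 0.13, a call kept in 12 of 16 alternatives. Slc38a1, a sodium-coupled carrier of glutamine and other neutral amino acids, was lower, with 34.3, 39.3, 48.6 and 45.2 in DMSO and 24.6, 21.5, 30.1 and 22.2 in STM2457 (-0.77 ± 0.17, adjusted p = 0.000839). At this time Slc25a28 had a log2 difference of 0.42 ± 0.19 (adjusted p = 0.166) and Slc33a1 one of -0.41 ± 0.27 (adjusted p = 0.406), and the tests of whether these differed from 0 h gave adjusted p = 0.307 and 0.302.

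At the times between, 1 carrier was called at 1 h (1.53% of all genes), 18 at 1.5 h (8.18%), 0 at 2.3 h (1.61%), 0 at 3.5 h (1.30%), 4 at 5.3 h (4.45%) and 2 at 8 h (2.34%), by edgeR. At an unadjusted p under 0.05 there were 21 of 124 carriers at 2.3 h and 18 at 3.5 h. Over all 12659 genes there were 1807 and 1744. The carriers' median log2 difference was 0.19 at 1.5 h, beside 0.01 over all genes, and 0.14 at 5.3 h, beside 0.00. At 1.5 h and 5.3 h 57 and 42 carriers had an unadjusted p under 0.05, beside 4012 and 3250 of the 12659 genes. At both times 2 of 4 DMSO libraries and no STM2457 library had a score below -1, and their part in these calls was not tested at single times.

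**Figure D3:**
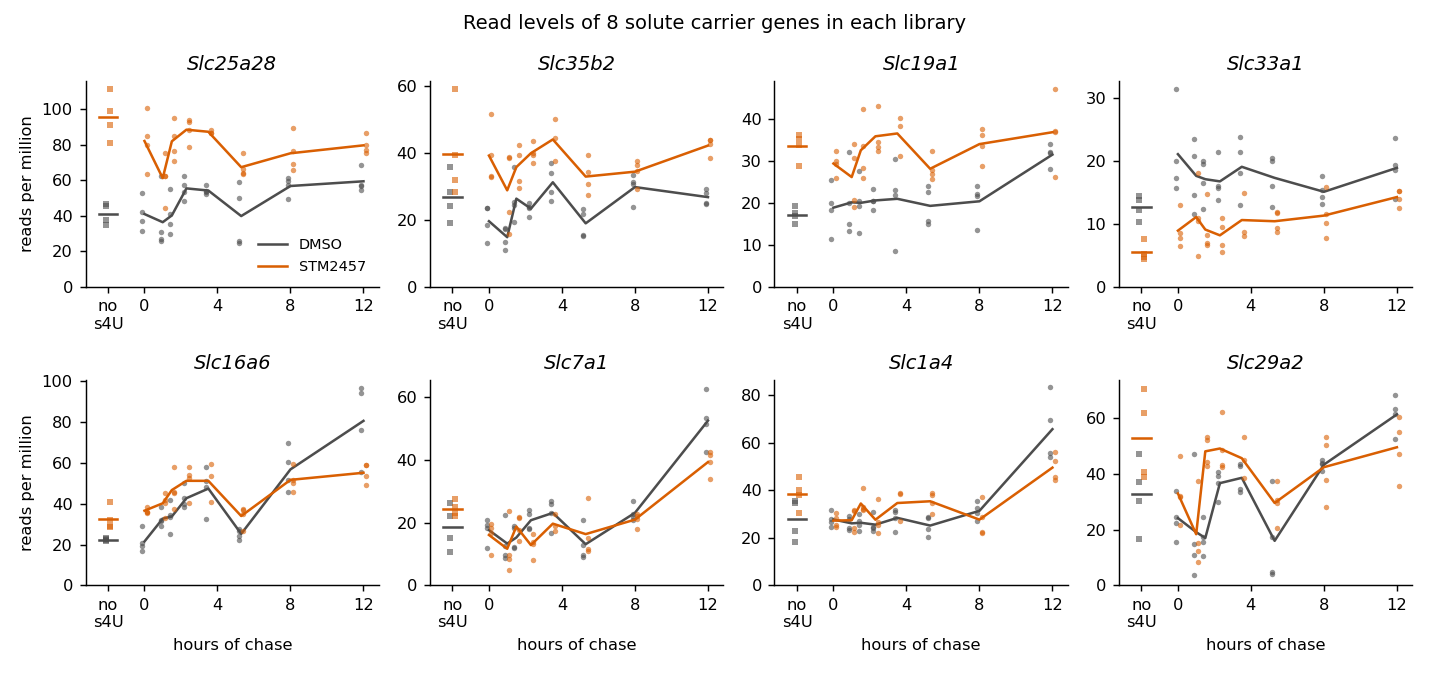
CPM of 8 solute carrier genes in each library (points) with group means (lines) over the hours of chase, and without s4U (squares, short lines), in DMSO and STM2457. Slc25a28, Slc35b2 and Slc19a1 lay higher and Slc33a1 lower in STM2457 along the chase, and Slc7a1 and Slc1a4 stepped up between 8 and 12 h in both treatments.

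The second question was how carrier levels changed along the chase within a treatment. The share of all reads that fell in the 124 genes was 0.799% ± 0.020 (SD, n = 4) at 0 h and 0.952% ± 0.0037 at 12 h in DMSO, and 0.793% ± 0.0086 and 0.971% ± 0.046 in STM2457, with no overlap between 0 and 12 h in either. In DMSO 17 carriers were called between 12 and 0 h, or 13.7%. The share was 13% of all genes and 18.4% of those past the T coverage limit. Of the 17 carriers 15 were higher, 12.1% of the 124 against 4.84% of all genes, and 2 lower, against 8.20%. Past the limit 6.19% of genes were higher and 12.2% lower. The median log2 change was 0.24 for carriers and 0.04 over all genes. In STM2457 8 carriers were called, or 6.45%, each of the 8 higher. Of all genes 4.72% were called, 1.69% higher and 3.03% lower. Past the T coverage limit 6.85% were called, 2.42% higher and 4.43% lower. Without the 12 libraries 16 carriers were called in STM2457, 14 higher and 2 lower, with the 8 among them. None of the 12 is an STM2457 library at 0 or 12 h. The share of all genes called under that setting is not given. Slc7a1, Slc1a4, Slc25a13 and Slc25a11 were called higher in both treatments, which is 26.7% of the 15 and 50% of the 8.

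Of the 19 amino acid carriers 3 were called higher in each treatment and 0 lower, with log2 changes from -0.22 to 1.57 in DMSO and from -0.39 to 1.29 in STM2457. Slc7a1, the main importer of arginine and lysine (chr5:148327410-148399904), had 12, 19.4, 18.4 and 20.7 CPM at 0 h in DMSO and 53.4, 62.8, 42.6 and 51.6 at 12 h, while the 4 libraries at 8 h still lay between 21 and 27. The log2 change from 0 to 12 h was 1.57 ± 0.28 (adjusted p = 1.76e-05) in DMSO and 1.29 ± 0.28 (adjusted p = 0.00111) in STM2457, where the 12 h libraries held 41.7, 42.4, 34 and 39.3. Slc1a4, an exchanger of alanine, serine and cysteine (chr11:20302180-20332713), had 24.4, 31.6, 26.8 and 27.9 at 0 h in DMSO and 55.8, 54.2, 69.6 and 83.3 at 12 h, a change of 1.25 ± 0.17 (adjusted p = 8.76e-08), and of 0.86 ± 0.18 (adjusted p = 0.000375) in STM2457. For both genes the 0 h and 12 h libraries did not overlap in both treatments. Slc43a2, a carrier of large neutral amino acids, was called in DMSO alone (1.19 ± 0.30), and Slc1a5, a glutamine exchanger, in STM2457 alone (0.59 ± 0.12), but neither difference between the treatments passed the test (adjusted p = 0.283 and 0.394).

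Slc16a6 (chr11:109450855-109473598) was the carrier with the steepest rise in DMSO. It went from 17, 20.6, 28.9 and 19.4 CPM at 0 h to 55.4, 94.4, 75.9 and 96.8 at 12 h, a log2 change of 1.90 ± 0.17 (adjusted p = 5.68e-14). In STM2457 it started higher, at 36.1, 35.7, 36 and 38.6, and ended at 49.2, 59.2, 58.8 and 53.5, a change of 0.59 ± 0.17 (adjusted p = 0.0120). The rise in STM2457 was smaller by 1.31 ± 0.24 log2 units (adjusted p = 0.000171 for the difference). It was the 1 carrier called in that test, with 1.11% of all genes called and 1.68% of those past the T coverage limit. It did not climb evenly, with means of 47.4 at 3.5 h and 25.2 at 5.3 h in DMSO, and 51.2 and 34 in STM2457.

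Other carriers that rose in DMSO were the nucleoside transporters Slc29a3, from 8.84 to 14 at 0 h to 28.8 to 35.3 at 12 h (1.42 ± 0.24, adjusted p = 4.16e-06), and Slc29a2 (1.34 ± 0.38, adjusted p = 0.00659). In STM2457 Slc29a3 changed by 0.32 ± 0.23 (adjusted p = 0.448). The difference from DMSO, -1.10 ± 0.33, did not pass the test (adjusted p = 0.0534). The Slc29a2 rise was 0.60 with the library score as a covariate, and it kept its call in 11 of 16 alternatives, losing it without DMSO replicate 1, 2 or 4 or STM2457 replicate 1 or 2. Slc25a37, the sister mitochondrial iron importer of Slc25a28, rose by 1.12 ± 0.26 and Slc27a3, an acyl-CoA synthetase of the fatty acid transport family, by 1.06 ± 0.21. The 2 that fell in DMSO were Slc25a5, from 941, 753, 654 and 642 to 605, 553, 524 and 452 (-0.49 ± 0.12, adjusted p = 0.00130), and Slc20a1, from 160.0, 174, 182 and 183 to 127, 133, 122 and 129 (-0.45 ± 0.11, adjusted p = 0.00189). Slc25a4 moved in STM2457 from 810, 795, 715 and 652 to 1256, 1151, 1167 and 1107 CPM (0.66 ± 0.14, adjusted p = 0.000500). Its groups did not overlap. Slc25a13, the aspartate/glutamate carrier, rose by 0.90 ± 0.12 (adjusted p = 2.90e-07) and Slc50a1, a sugar transporter, by 0.93 ± 0.23 (adjusted p = 0.00468, a call kept in 10 of 16 alternatives) in STM2457. Slc25a4 differed from its DMSO change of 0.03 by 0.63 ± 0.19, which did not pass the test (adjusted p = 0.0634).

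Labelled cells at 0 h were also set against unlabelled cells. The hours of treatment of the unlabelled cells are not given, so s4U and hours of treatment cannot be told apart here. In DMSO 2 carriers were called, both lower in labelled cells, with 0.513% of all genes called and 0.765% of those past the T coverage limit. Slc16a3, a lactate exporter, was at 125, 76.7, 67.9 and 48.7 CPM without s4U and at 34.3, 24.6, 25.4 and 34.5 with it (-1.43 ± 0.31, adjusted p = 0.00468). Slc7a7 was lower, with -0.68 ± 0.15 (adjusted p = 0.00634), and kept the call in 10 of 16 alternatives. In STM2457 0.521% of all genes were called, and 0.79% of those past the T coverage limit. Without the 12 libraries, none of which is an STM2457 library at 0 h or without s4U, 4 carriers were called. With all libraries 1 carrier was called. It was Slc7a3, an arginine importer, at 105, 105, 117 and 120 without s4U and 72.2, 57.8, 57.1 and 72.3 with it (-0.78 ± 0.14, adjusted p = 0.000338). Slc7a3 was at -0.56 ± 0.14 in DMSO, where it was not called, and Slc16a3 at -0.91 ± 0.31 in STM2457.

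The third question was how long carrier transcripts kept their label. The conversion rate over the 124 genes was 1.41% ± 0.09 of covered T positions (SD, n = 4) at 0 h in DMSO and 1.27% ± 0.06 in STM2457, against 0.08% in unlabelled cells of either treatment. After subtraction of that background, the median carrier held 85.9%, 75.6%, 72.0% and 59.8% of its 0 h label at 1, 1.5, 2.3 and 3.5 h in DMSO and then 10.6%, 4.21% and 2.26% at 5.3, 8 and 12 h. In STM2457 the medians were 92.7%, 84.7%, 80.2%, 58.3%, 18.9%, 6.59% and 1.67%. Label thus fell most between 3.5 and 5.3 h in both treatments, and over all transcripts as well, where 59.2% and 13.3% were left in DMSO, a course that a single exponential follows only in part. The median carrier had 40.5 conversions per library at 0 h and 3.5 at 12 h, so late points rest on few events.

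**Figure D4:**
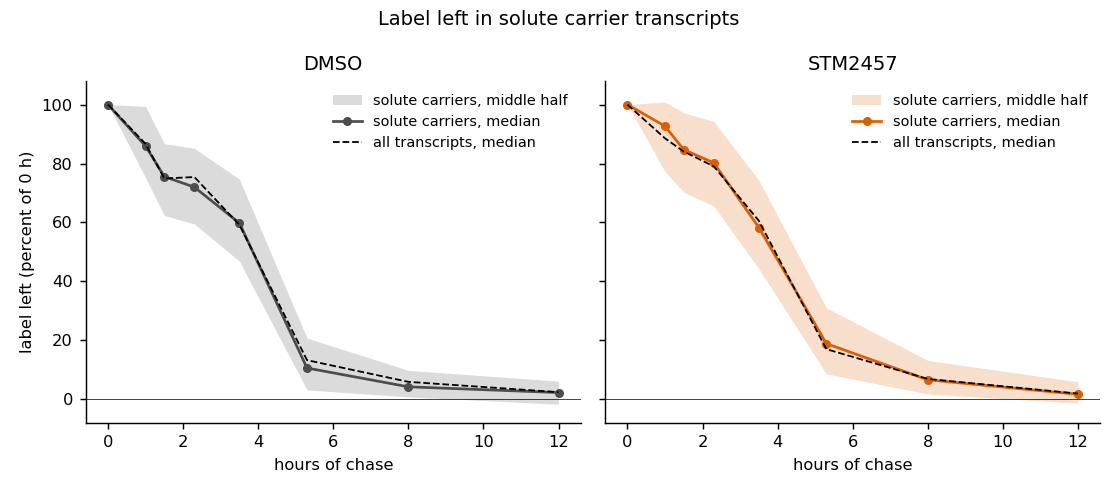
Label left in percent of 0 h over the hours of chase, as the median of 124 solute carrier genes with their interquartile range shaded and the median over 11424 transcripts dashed, in DMSO and STM2457. In both treatments the curve drops from about 59.8% and 58.3% at 3.5 h to 10.6% and 18.9% at 5.3 h.

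An exponential decay was fitted to the label left, and 95 of the 124 carriers passed the filters in both treatments. The 29 others exceeded the limit on the residual error of the fit. For the 95 the half-life had a median of 2.88 h under DMSO and 3.43 h under STM2457, beside 3.19 h and 3.45 h over 7380 transcripts. The quartiles of carriers in DMSO lay at 2.46 and 3.45 h, beside 2.37 and 4.33 h over all. When each replicate number was fitted as its own series, the median over 81 carriers was 3.08, 2.68, 3.10 and 2.95 h in the 4 DMSO series and 3.81, 3.52, 3.34 and 3.08 h in the 4 STM2457 series, so the treatments overlapped narrowly. Leaving out 1 time moved the median change between treatments, which was 12.8% with all times, to 20.1% without 3.5 h and 8.15% without 1.5 h. Over all transcripts these were 4.94%, 6.56% and 2.77%.

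The 8 longest half-lives in DMSO were those of Slc44a1, a choline transporter (8.65 h), Slc25a5 (7.79 h), Slc25a3 (5.66 h), Slc25a4 (5.33 h), Slc25a13 (4.96 h), Slc35a1, a CMP-sialic acid transporter (4.93 h), Slc38a4 (4.88 h) and Slc9a3r1 (4.81 h). The 3 of highest abundance among all carriers, Slc25a4, Slc25a3 and Slc25a5, with 99899, 89363 and 81097 covered T positions in DMSO, were among them. Over the 4 DMSO series Slc25a3 gave 5.70 h ± 0.78 (SD), Slc25a4 5.57 h ± 1.61 and Slc25a5 8.35 h ± 2.77, and these neighbours did not differ beyond their spread. The next in coverage, Slc3a2 and Slc2a3, were measured more evenly, with 2.52 h ± 0.23 and 3.8 h ± 0.56. The 8 shortest were Slc25a37 (1.03 h), Slc35c1 (1.28 h), Slc49a4 (1.30 h), Slc35b2 (1.39 h), Slc16a6 (1.75 h), Slc41a1, a magnesium carrier (1.75 h), Slc15a4, a lysosomal carrier of histidine and peptides (1.79 h), and Slc29a2 (1.84 h). For 4 of the shortest, Slc25a37, Slc35c1, Slc35b2 and Slc29a2, and for Slc44a1 among the longest, at least 1 DMSO series gave a half-life out of range, so no spread is given.

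By class, the median half-life in DMSO was 2.36 h in 7 organic ion, 2.67 h in 5 vitamin and nucleoside, 2.79 h in 9 ion and pH, 2.83 h in 11 Slc35, 2.99 h in 21 mitochondrial, 3.07 h in 16 amino acid, 3.13 h in 5 sugar and 3.16 h in 9 zinc carriers. In classes of 3 measured genes it was 1.94 h for other metals, 2.97 h for the genes named after a carrier and 3.45 h for lipids and choline, and 2 phosphate carriers gave 2.56 h. The single genes of the classes overlapped. Amino acid carriers spread from 1.92 to 4.88 h, and mitochondrial carriers from 1.03 to 7.79 h.

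**Figure D5:**
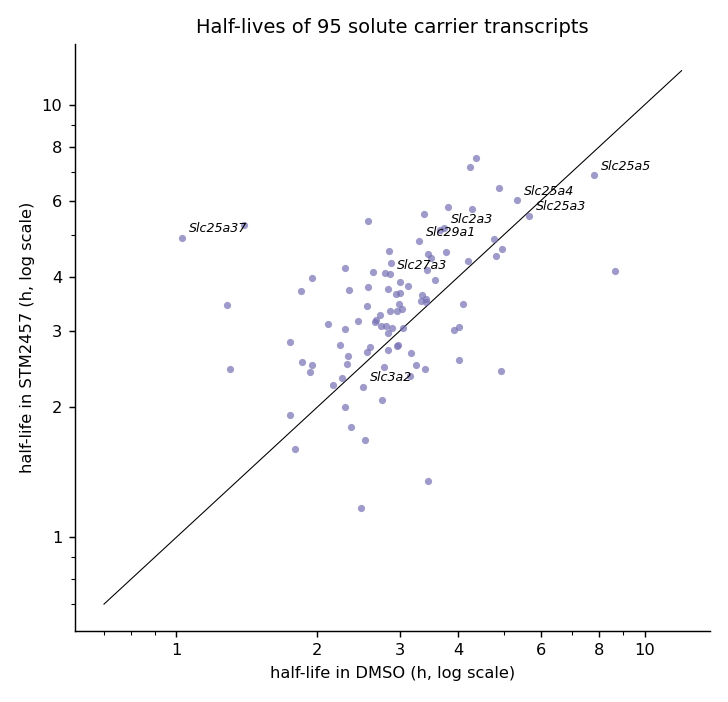
Half-life in STM2457 against half-life in DMSO (h, log scales) for each of the 95 solute carrier transcripts that passed the filters, with the line of equal half-lives. Above the line lie 68 of the 95, and the abundant Slc25a3, Slc25a4 and Slc25a5 lie near it at the upper end.

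The last comparison was of half-lives between the treatments. The half-life was longer in STM2457 for 68 of the 95 carriers, or 71.6%, beside 56.7% of all transcripts, and the median change was 12.8% beside 4.94%. Without the 12 libraries the values moved in both sets, to 72.2% of 90 carriers beside 65.8% of all transcripts and to a median change of 19.2% beside 12.3%. The share that was longer was 62.5% of 104 carriers beside 54.1% without 1.5 h, and 74.0% of 96 beside 58.4% without 3.5 h. Each half-life is relative to the 0 h conversion rate, which was 1.27% in STM2457 and 1.41% in DMSO over the 124 genes. At 1, 1.5, 2.3, 3.5, 5.3 and 12 h the STM2457 rate was also the lower, from 1.18% beside 1.24% to 0.157% beside 0.170%. At 8 h it was the higher, with 0.278% beside 0.261%. How far the longer half-lives rest on the 0 h rate was not tested. Longer half-lives were counted for 17 of 21 mitochondrial carriers, 5 of 5 vitamin and nucleoside carriers, 8 of 11 Slc35 genes, 10 of 16 amino acid carriers and 4 of 9 zinc carriers. Slc23a2, left out of the vitamin class, had a log2 half-life difference of -0.31 ± 0.37 over the series. No carrier passed the limma test on the series, with 0% of 5748 transcripts called at an adjusted p under 0.05. At an unadjusted p under 0.05 there were 6 of 81 carriers and 405 of all transcripts. The Slc2a3 series gave 4.12, 3.34, 3.31 and 4.42 h in DMSO and 5.56, 4.18, 5.43 and 5.3 h in STM2457, which overlap by 1 STM2457 series. Single carriers varied between series with a median SD of 0.52 log2 units in each treatment.

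A test on the conversion counts themselves, without the decay fit, also called none. It subtracted no background and gave each chase time the same weight on the log scale. The median carrier had 3.5 conversions per library at 12 h, so the absence of calls does not show equal rates. With edgeR, 0 carriers and 0% of 11424 genes were called for the conversion rate during the chase relative to 0 h, and 2 carriers (Slc38a10 and Slc7a3) and 349 genes were under an unadjusted p of 0.05. Slc38a10 was at 0.57 ± 0.26 and Slc7a3 at 0.58 ± 0.29. The 0 h difference is subtracted in these values, and it was -0.48 ± 0.24 for Slc38a10 and -0.57 ± 0.27 for Slc7a3. The log2 difference was above 0 in 76 of 124 carriers, or 61.3%, beside 57.1% of all genes, with medians of 0.18 and 0.08. At 0 h the rate was lower in STM2457 for most genes, with medians of -0.13 for carriers and -0.11 over all genes, and again 0 carriers and 0% of genes were called, with 3 carriers and 206 genes at an unadjusted p under 0.05. Slc2a3 had the lowest p of the carriers, with -0.38 ± 0.14 (adjusted p = 1). Slc25a28, Slc35b2, Slc19a1 and Slc33a1, whose read levels differed between treatments, were not called for the rate during the chase, where standard errors were wide. Their log2 differences were 0.38 ± 0.53, 1.33 ± 0.68 (edgeR unadjusted p = 0.0527), 0.36 ± 0.50 and 0.58 ± 0.75. Slc35b2 was not covered by the test on the half-life series.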

How the data were processed

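SLAM-seq of mESC treated with DMSO or STM2457 was analysed in 71 libraries of 18 groups, grouped by their labels. Hours of chase were taken from the study's methods. Reads were checked by the authors with FastQC 0.11.8, mapped with SLAM-DUNK to GRCm38.p6 allowing several positions per read, and counted on 3′ UTR windows, with variants of unlabelled libraries masked. The authors deposited raw counts of reads, multimapping reads, covered T positions and T-to-C conversions per gene. They also deposited the conversion rate as a fraction and CPM. The CPM column was not used, and rates were recomputed from the counts. Counting on windows from several places lets near-identical genes share reads.

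Read counts were tested with edgeR 4.0.16 (quasi-likelihood, TMM, filterByExpr) in 1 fit over all libraries, with Benjamini-Hochberg adjustment over 12659 genes and a threshold of 0.01. Levels are CPM after TMM scaling. Conversions were tested with edgeR with the log of T coverage as offset, for genes with a mean coverage above 100, and log2 half-lives of 4 series per treatment with limma 3.58.1, both at 0.05. No background was subtracted from the tested conversions. Half-lives came from background-subtracted mean rates divided by the 0 h rate, fitted by an exponential fixed at 1 at 0 h, and were kept from 0.67 to 18 h where the residual error did not exceed 0.3 in either treatment. STM2457 series 4 lacked 3.5 h. Alternatives included DESeq2 1.42.0, RLE scaling, no filter, unique reads, a replicate block and leaving out each replicate. Scripts were tested on simulated data.

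The 124 genes, the classes and the lists were chosen with earlier results of these data known. Genes were named by rule: the 10 called carriers with the largest increase and the 10 with the largest decrease over the chase, 5 per direction in other contrasts, the 8 longest and 8 shortest half-lives, the 5 with highest T coverage, and those next to the limit. The other called carriers, and the transporters without a symbol of the Slc form, were named to complete their class. Slc5a6 and Slc23a2 were named to show how families were classed. Positions are from GENCODE M21 (Slc49a4 from RefSeq) on GRCm38. No 3′ end lay inside another annotated gene on the same strand. Results of 2 of the called carriers are counted but not reported here.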

Additional observations from a re-analysis of the deposited data

Results flagged for a closer look

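The change of Slc16a6 between 0 and 12 h of chase differed between the treatments by -1.31 log2 units, STM2457 minus DMSO, by edgeR's test of the interaction (adjusted p = 0.000171). The call held in all 16 alternatives, with values from -1.52 to -1.12.

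Among 79 groups of 4 libraries or series checked for a value far from the others, 4 had one, and chance gives about 1 in 20. At 0 h in STM2457, Slc16a6 was 38.6 CPM in 1 library and 35.7 to 36.1 in the others. At 12 h in DMSO, Slc30a6 was 26.4 in replicate 1 and 14.5 to 15.6 in the others. At 12 h in STM2457, Slc25a51 was 128 in replicate 1 and 106 to 110 in the others. Without s4U in STM2457, Slc45a4 was 55.8 in replicate 2 and 50.6 to 51.3 in the others.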

How the results depend on the processing

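Of 51 values of named carriers, recomputed under 836 combinations with an alternative, 730 kept their call, 106 kept their direction without passing the threshold, and 0 turned. The counts of calls that follow are of carriers alone, with no count over all genes under the same setting. Shifts in them are not shown to be particular to carriers. With only the libraries of a contrast, calls numbered 3 at 0 h, 11 at 12 h, 2 without s4U, 14 for 12 against 0 h in STM2457, 2 for the difference between treatments, and 1 and 2 for 0 h against no s4U in DMSO and STM2457. Chosen after the data were seen, leaving out the 12 libraries gave 11 calls at 12 h, 16 for 12 against 0 h in STM2457, 2 for the difference between treatments and 4 for s4U in STM2457, and the library score as a covariate gave 14, 14, 2 and 4. Leaving out 1 replicate number of a treatment gave 28 to 41 calls over the chase, 2 to 5 at 0 h, 2 to 7 at 12 h, 1 to 5 without s4U, 9 to 16 for 12 against 0 h in DMSO, 3 to 11 in STM2457, 1 to 1 for the difference, and 0 to 3 and 0 to 1 for s4U in DMSO and STM2457. By replicate left out, the 0 h count moved to 3 (DMSO 1) and 2 (DMSO 2, STM2457 3), the 12 h count to 2 (DMSO 3 or 4), and the count without s4U to 1 (DMSO 4), 2 (STM2457 1, 2 or 3) and 3 (DMSO 2, STM2457 4). The count for 12 against 0 h moved to 10 and 9 in DMSO (DMSO 2, DMSO 4) and to 3 (STM2457 2) or 5 (STM2457 1, 3 or 4) in STM2457. The s4U count moved to 0 (DMSO 1, 2 or 3) or 1 (STM2457 1 or 2) in DMSO and to 0 (STM2457 2 or 3) in STM2457. Leaving out a replicate gave 0 to 0 calls for conversions and half-lives, a median DMSO half-life of 2.89 to 3.12 h (highest without DMSO replicate 2), and a median change of 8.93% to 17.8%. The median change was 20.1% without 3.5 h, 8.15% without 1.5 h and 19.2% without the 12 libraries. Over all transcripts it was 6.56%, 2.77% and 12.3%. The carriers' change ran from -2.31% to 15.95% by STM2457 series and from 12.7% to 22.3% by DMSO series. The SD that combines both spreads was 8.52 percentage points.

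Replicate numbers did not pair libraries: 1 of 35 same-numbered pairs correlated above 0.1 (mean 0.01). With the replicate block, 38 carriers were called over the chase, 5 at each of 0 h, 12 h and without s4U, 17 and 9 for 12 against 0 h in DMSO and STM2457, and 0 for conversions and half-lives. Depth limits late label values, with 3.5 conversions per library for the median carrier at 12 h.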
